A study of Mus musculus with 6 samples.

Results

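The interleukin-1 family was followed through 9 genes, taken by their symbols from a table of normalised RNA sequencing values that lists 38739 genes: the ligand genes *Il1a* and *Il1b*, the receptor antagonist gene *Il1rn*, and the receptor genes *Il1r1*, *Il1r2*, *Il1rl1*, *Il18r1*, *Il18rap* and *Sigirr*. All 9 had values above 0 in all 6 samples and entered the test. The samples were peritoneal neutrophils of cGAS knockout (cGAS-/-) mice, in which the enzyme that senses DNA in the cytosol and makes cGAMP is missing, on a strain given as C57B/L6. After culture in RPMI with serum, 3 samples had received medium alone for 2 h (untreated) and 3 had received lipopolysaccharide (LPS, from *E. coli* 026:B6) for 2 h. LPS, a surface molecule of Gram-negative bacteria, is sensed by cells through TLR4. The labels give the dose as 500 ng/mL, while the methods of the study name a lower dose for the sequenced cells. According to those methods the mice were male and 8 weeks old, and the neutrophils were drawn into the peritoneum by a thioglycolate injection 2 h before they were washed out. The deletion was carried by all 6 samples, wild-type cells were not analysed here, and the sources do not say which samples came from separate mice, so the p values measure only the spread between these samples, which may be technical.

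IL-1α and IL-1β, the products of *Il1a* and *Il1b*, bind the receptor encoded by *Il1r1*, which pairs with an accessory chain and passes the signal through MyD88 and IRAK kinases to NF-κB. The antagonist encoded by *Il1rn* occupies the same receptor without signalling, and the receptor encoded by *Il1r2* binds IL-1 but lacks the signalling domain, so it acts as a decoy, one that neutrophils are known to carry. *Il1rl1* encodes ST2, the receptor of IL-33, *Il18r1* and *Il18rap* encode the ligand-binding and accessory chains for IL-18, and *Sigirr* encodes a receptor-like inhibitor of signalling by this family. IL-1β is made as a precursor that must be cut before it is active, and RNA values do not show that step.

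The genes lie in a few places of the genome (GRCm39). *Il1r2*, *Il1r1*, *Il1rl1*, *Il18r1* and *Il18rap* lie in this order, all on the plus strand, within 478 kb of chromosome 1 (40113239 to 40590865), a stretch that holds 6 protein-coding genes, with *Il1rl2* as the other one. *Il1a* (129140291 to 129152098) and *Il1b* (129206490 to 129213059) are neighbours on the minus strand of chromosome 2, *Il1rn* (24226865 to 24241506, plus strand) lies far from them on the same chromosome, and *Sigirr* lies on the minus strand of chromosome 7 (140670832 to 140680517). RefSeq promoter windows, from a table on GRCm38, were given for 8 of the 9 genes, 14 windows in all, and each matched a single place of GRCm39. The 250 bases before the start are shown for *Il1a* and *Il1b*, the genes that rose after LPS, and for the antagonist and decoy genes, *Il1rn* and *Il1r2*, which did not pass the test. Capitals mark the motifs searched on both strands, which were NF-κB, AP-1 (TGANTCA), C/EBP (TTGCNNAA), CRE (TGACGTCA) and, added after the sequences were seen, the TATA box (TATAAA).
Il1a, chr2:129151893-129152142, minus strand: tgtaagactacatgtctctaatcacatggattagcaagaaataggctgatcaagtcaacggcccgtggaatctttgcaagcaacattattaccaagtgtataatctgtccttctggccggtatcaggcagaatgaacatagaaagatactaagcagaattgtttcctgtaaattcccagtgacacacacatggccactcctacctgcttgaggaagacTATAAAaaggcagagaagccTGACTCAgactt
Il1b, chr2:129213060-129213309, minus strand: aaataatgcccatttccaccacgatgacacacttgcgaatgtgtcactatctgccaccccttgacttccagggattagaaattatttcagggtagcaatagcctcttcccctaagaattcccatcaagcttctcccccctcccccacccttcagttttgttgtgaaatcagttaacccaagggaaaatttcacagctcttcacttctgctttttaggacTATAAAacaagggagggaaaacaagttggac
Il1rn, distal of 3 windows, chr2:24226622-24226871, plus strand: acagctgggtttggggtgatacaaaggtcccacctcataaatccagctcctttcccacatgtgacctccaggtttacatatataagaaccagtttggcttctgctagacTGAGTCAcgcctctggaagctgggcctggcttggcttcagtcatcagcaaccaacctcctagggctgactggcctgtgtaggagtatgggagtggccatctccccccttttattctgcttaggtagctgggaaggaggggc
Il1r2, chr1:40125003-40125252, plus strand: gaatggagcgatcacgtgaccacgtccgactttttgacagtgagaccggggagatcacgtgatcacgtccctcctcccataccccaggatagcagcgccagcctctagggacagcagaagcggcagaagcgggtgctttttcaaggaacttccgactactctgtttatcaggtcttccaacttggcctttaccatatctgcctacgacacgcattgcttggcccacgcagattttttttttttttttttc
Counted back from -1 at the base before the start, the *Il1a* window had a TATA box at -32 to -27 and an AP-1 motif at -12 to -6, the *Il1b* window had a TATA box at -31 to -26, and the *Il1rn* window had an AP-1 motif at -141 to -135. None of these matches overlapped another, and the *Il1r2* window held none of the motifs. Of 32851 RefSeq promoter windows of this length, 12.4% held the TATA box, 6.75% AP-1, 9.56% C/EBP, 7.25% NF-κB and 1.55% CRE. Of the other 10 windows, 1 of *Il1r1* and 1 of *Il1rl1* held a C/EBP motif, a second *Il1r1* window held an NF-κB motif and 7 held none. A match is only a stretch of letters, and a missing match says nothing about whether a factor acts on the gene.

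Values are given as scaled TPM, a share of all transcripts corrected for transcript length, of which the mean over a gene's transcripts is listed after each sample was scaled by a factor of its own. The depth of each sample is unknown, as read numbers cannot be recovered from TPM. Untreated samples had summed values of 603599 to 713384 and LPS samples of 404675 to 465904, of which protein-coding genes made up 21.0 to 28.3% and 49.7 to 58.9%. The deleted gene, *Cgas*, was near 0, at no more than 0.307 untreated and 0.184 with LPS. The 12 neutrophil markers in the table summed to 9694 to 28425 untreated and 16057 to 54640 with LPS, and the 6 B cell markers to 281 to 1087 and 262 to 797.5. The samples numbered 2 stood apart in each group, with the highest neutrophil sum (28425 and 54640) and the lowest B cell sum (281 and 262). Macrophage and monocyte markers (11 genes) summed to 170 to 204.5 untreated and 274 to 421 with LPS. Sums were 28.5 to 86.1 and 83.3 to 133.9 for 5 mast cell and basophil markers, 15.2 to 37.6 and 36.4 to 68.5 for 7 dendritic cell markers, 15.9 to 22.2 and 9.09 to 21.2 for 10 T cell and NK cell markers, 3.10 to 8.52 and 2.02 to 5.31 for 5 eosinophil markers, where *Epx* was listed at 0 in all samples, and 0.641 to 3.02 and 1.12 to 1.59 for 9 mesothelial and stromal markers. In such bulk samples fewer cells of a type and less RNA per cell cannot be told apart.

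The question was which of these genes differed between LPS-stimulated and untreated cGAS-/- neutrophils. After LPS the ligand genes *Il1a* and *Il1b* rose, while the antagonist gene and the 6 receptor genes did not pass the test. A gene was called at an unadjusted p under 0.01 together with a log2 fold change over 2 in either direction in limma, on log2(value + 1), a scale that understates the change of low genes. Of the 9 genes, 2 were called higher and 0 lower, where 1.69% of the 23049 genes tested were called higher (389 genes) and 1.31% lower (301 genes), or 2.99% in either direction. The split of these calls depended on scaling, with 789 higher and 144 lower when samples were given the same total and 216 and 519 with the same protein-coding total. It was 1552 and 177 with voom, which scales samples to the same total, uses another offset than 1 and weights each value by its estimated precision. Voom is made for counts and was given scaled TPM here, so its weights do not reflect read numbers and its p values carry that limit. At a Benjamini-Hochberg adjusted p under 0.05 in limma, 0 of the 9 genes passed, against 0.894% of all genes higher, 0.946% lower and 1.84% in either direction. At an unadjusted p under 0.05, only *Il1a* and *Il1b* of the 9 passed in the main limma fit. With voom, the same total or a filter at a mean of 1 both also passed the adjusted limit, which with voom *Il1rn* passed as well. The median log2 fold change of the 9 genes was -0.36, with 3 above and 6 below 0, beside 0.013 over all genes tested, of which 52.9% were above 0.

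**Figure D1:**
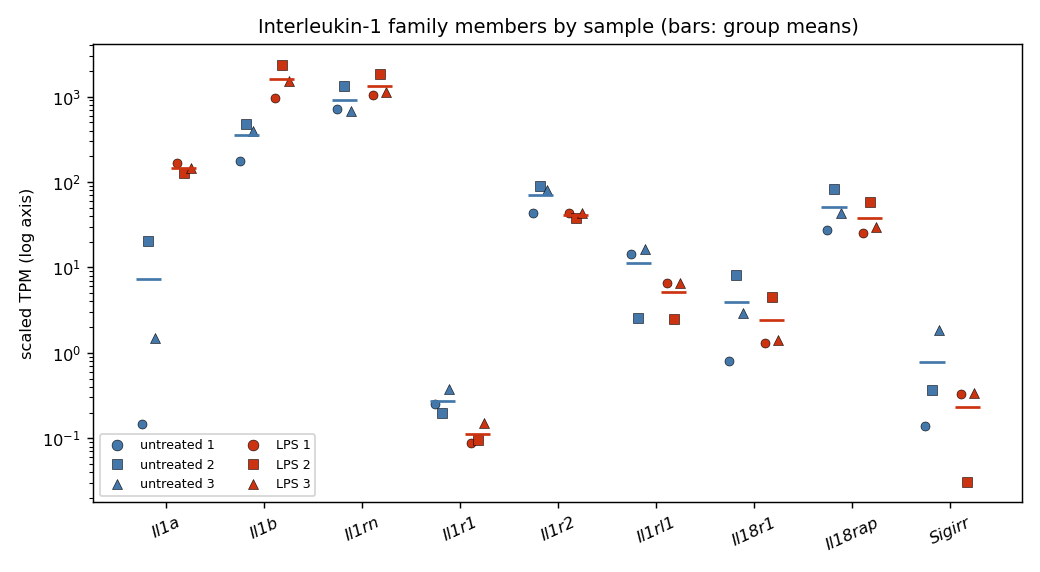
Scaled TPM of the 9 genes in each sample, on a log axis, with untreated samples in blue and LPS samples in red, the shape giving the sample number and a bar giving the group mean (n = 3). The LPS samples lie above all untreated samples for *Il1a* and *Il1b* and below them for *Il1r1* and *Il1r2*, and the groups overlap for the other genes.

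*Il1a* encodes IL-1α, which is active without being cut and is released by damaged cells. In scaled TPM its values were 0.147 in untreated 1, 20.6 in untreated 2 and 1.48 in untreated 3, and 169, 129 and 144 in LPS 1, 2 and 3. The LPS samples were close to each other and all above the untreated samples, which spread from near 0 to 20.6, with untreated 2 far above the others. The mean went from 7.39 ± 11.4 to 147.5 ± 20.1 (SD, n = 3), a 19.9-fold difference. The log2 fold change was 5.23 (standard error 1.06, 95% interval 2.64 to 7.81, adjusted p = 0.072 in limma). The adjusted p in limma ran from 0.0045, with voom, to 0.23 over the alternatives. The call was lost, with the unadjusted p just above its limit, without untreated 3 (log2 fold change 4.89), without LPS 1 (5.12) and without LPS 2 (5.32). Without both samples numbered 2 it was kept, with a log2 fold change of 6.54.

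*Il1b* encodes IL-1β, the secreted ligand that neutrophils and macrophages make in response to bacteria. Its values were 178, 478 and 397 scaled TPM without LPS and 972, 2353 and 1504 with LPS. Each LPS sample was above each untreated sample, and sample 2 was the highest of each group. The mean went from 351 ± 155 to 1609 ± 697 (SD, n = 3), a 4.59-fold difference. The log2 fold change was 2.22 (standard error 0.52, 95% interval 0.95 to 3.49, adjusted p = 0.097 in limma). The adjusted p in limma ran from 0.0045, with voom, to 0.28 over the alternatives. The fold lies close to the limit, and the call was lost with the same protein-coding total (log2 fold change 1.72) and without untreated 1 (1.79), untreated 3 (2.37), LPS 2 (1.90), LPS 3 (2.22) or both samples numbered 2 (2.18). The rise of both ligand genes kept its direction under every alternative run. Macrophage and monocyte markers, of cells that also make IL-1, had a higher sum in every LPS sample (274 to 421) than in every untreated sample (170 to 204.5). Of these 11 genes 1, *C1qb*, was called higher and 0 lower, beside 1.69% and 1.31% of all genes tested. Their sum was lowest in untreated 2 (170), where *Il1b* was the highest of its group (478). With LPS the sum was highest in LPS 2 (421), where *Il1b* was also the highest of its group (2353). The neutrophil sum ran from 9694 to 28425 untreated and from 16057 to 54640 with LPS. Dendritic cell and mast cell sums also ran higher with LPS, and these 3 sums overlapped between the groups. Of the 12 neutrophil markers 1, *Cxcr2*, was called lower and 0 higher, beside 1.31% and 1.69% of all genes tested. Although their sum ran higher with LPS, 6 of the 12 had a log2 fold change above 0 and 6 below (median -0.24). The part of any of these cell types in the rise of *Il1a* and *Il1b* was not tested.

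Both ligand genes overlap the long non-coding RNA gene *Gm14023* on the other strand, and *Il1b* also overlaps *Il1bos*. The library kit marks strand, but whether strand was used in the quantification is not given in the sources used here, so reads of a gene and its antisense partner may not have been told apart. *Gm14023*, described here because it spans both genes, had untreated values of 0.165, 0.198 and 0 scaled TPM and LPS values of 1.51, 1.91 and 1.72. All its LPS values were above all untreated values, and the log2 fold change, 1.28 with a standard error of 0.27 (adjusted p = 0.078 in limma), was under the fold limit. *Il1bos* had values of 7.09, 7.71 and 2.82 untreated and 7.73, 14.6 and 15.4 with LPS (log2 fold change 1.02, adjusted p = 0.33 in limma). The groups of *Il1bos* did not overlap, although untreated 2 and LPS 1 were almost equal.

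*Il1rn*, the antagonist gene, was the most abundant of the 9 in untreated samples, with values of 714, 1343 and 671 scaled TPM untreated and 1034, 1816 and 1133 with LPS. In each group sample 2 was the highest, and untreated 2 lay above LPS 1 and LPS 3, so the groups overlapped. The mean was 909 ± 376 untreated and 1328 ± 426 with LPS (SD, n = 3), and the log2 fold change of 0.57 (standard error 0.41, 95% interval -0.42 to 1.57, adjusted p = 0.55 in limma) did not pass the test. The alternatives gave from 0.07 with the same protein-coding total (adjusted p = 0.91 in limma) to 1.21 with voom (adjusted p = 0.033 in limma), which is past the adjusted limit but under the fold limit.

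**Figure D2:**
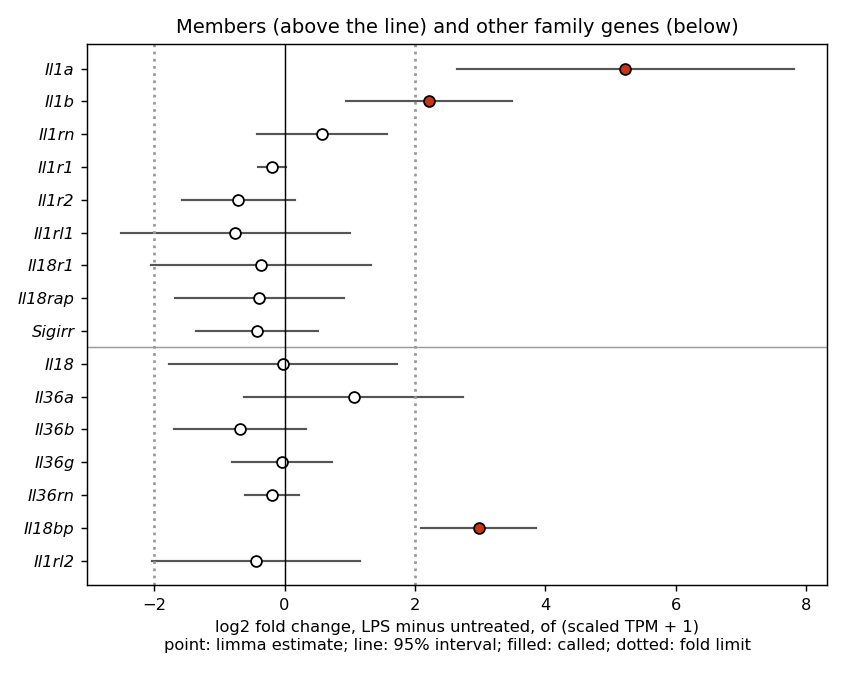
Log2 fold change of (scaled TPM + 1), LPS minus untreated, for the 9 genes above the grey line and other genes of the family below it, with the 95% interval of limma as a line and called genes as filled points. Dotted lines mark the fold limit of 2 in either direction, and only *Il1a*, *Il1b* and *Il18bp* are filled.

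Among the receptor genes, *Il1r1* encodes the only receptor of the 9 genes that carries the IL-1 signal. It was close to 0 throughout, at 0.253, 0.196 and 0.372 scaled TPM without LPS and 0.0889, 0.0962 and 0.152 with it. Each LPS sample was below each untreated sample, although at this level the log2(value + 1) scale shows little of it. The log2 fold change was -0.19 (standard error 0.09, 95% interval -0.41 to 0.03, adjusted p = 0.34 in limma), and it turned to 0.31 with voom.

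*Il1r2*, the decoy receptor gene, was far more abundant than *Il1r1*, with values of 43.6, 88.6 and 80.8 scaled TPM untreated and 43.0, 38.1 and 42.9 with LPS. The LPS samples were nearly equal and all below the untreated samples, but untreated 1 exceeded LPS 1 by less than 1 scaled TPM. The log2 fold change was -0.71 (standard error 0.36, 95% interval -1.57 to 0.16, adjusted p = 0.38 in limma) and did not pass the test. Its size depended on scaling, from -0.08 with voom and -0.09 with the same total to -1.20 with the same protein-coding total. Groups in which every LPS sample was above every untreated sample were found for 2 of the 9 genes, against 13.1% of all genes tested, and the opposite order for 2 of the 9, against 9.75%.

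*Il1rl1*, the gene of the IL-33 receptor ST2, which mast cells, basophils and some T cells carry, had values of 14.3, 2.53 and 16.5 scaled TPM untreated and 6.54, 2.46 and 6.52 with LPS. Here sample 2 was the lowest of each group, and the samples numbered 1 and 3 were alike within each group. The log2 fold change was -0.76 (standard error 0.72, 95% interval -2.51 to 1.00, adjusted p = 0.58 in limma), and -1.12 with an adjusted p of 0.14 in limma without both samples numbered 2. It was -1.49 (adjusted p = 0.16 in limma) without untreated 2, -0.34 without untreated 3, -0.38 without LPS 2 and -0.44 without untreated 1, and was called in none of these fits. Mast cell and basophil markers summed to 28.5, 51.8 and 86.1 untreated and 86.2, 83.3 and 133.9 with LPS, where sample 2 was not the lowest of the untreated group. The T cell and NK cell sum was lowest in sample 2 of each group, at 22.2, 15.9 and 18.8 untreated and 19.7, 9.09 and 21.2 with LPS. The B cell sum was lowest there too. Of the single markers, 3 of 10 for T and NK cells, 3 of 6 for B cells and 2 of 5 for mast cells and basophils were lowest in sample 2 of both groups. Over all genes tested this share was 15.7%. The part of other cell types in the *Il1rl1* values was not tested.

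The genes of the IL-18 receptor followed the sample number in the opposite way. *Il18r1*, which encodes the ligand-binding chain, had values of 0.811, 8.12 and 2.91 scaled TPM untreated and 1.32, 4.49 and 1.42 with LPS (log2 fold change -0.36, standard error 0.69, 95% interval -2.04 to 1.33, adjusted p = 0.79 in limma). *Il18rap*, the accessory chain gene, had values of 27.3, 83.1 and 43.7 untreated and 25.1, 58.4 and 29.5 with LPS (log2 fold change -0.39, standard error 0.53, 95% interval -1.69 to 0.91, adjusted p = 0.70 in limma). In both genes sample 2 was the highest of each group, and the groups overlapped. Without untreated 2 the log2 fold change became 0.24 for *Il18r1* and 0.02 for *Il18rap*, and voom gave 0.24 for each, so no direction can be given.

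*Sigirr*, the inhibitory receptor gene, was low as an average over its transcripts, of which 38 are annotated. Its values were 0.139, 0.368 and 1.85 scaled TPM untreated and 0.327, 0.0311 and 0.341 with LPS. The highest value was that of untreated 3, and untreated 1 lay below LPS 1 and LPS 3. The log2 fold change of -0.43 (standard error 0.38, 95% interval -1.36 to 0.51, adjusted p = 0.56 in limma) did not pass the test. It was -0.03 without untreated 3 and 0.04 with voom. Both *Sigirr* and *Il1r1* stayed below 2 scaled TPM in all samples.

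Sample 2 was the highest of each group for 4 of the 9 genes (*Il1b*, *Il1rn*, *Il18r1* and *Il18rap*) and the lowest of each for 1 (*Il1rl1*). Over all genes tested these shares were 11.5% and 15.7%, and over the 9403 genes with a mean of at least 1 they were 17.4% and 20.5%. Among the neutrophil markers, 8 of 12 were highest in sample 2 of each group. The part of the neutrophil share of the cells in these 4 genes was not tested.

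**Figure D3:**
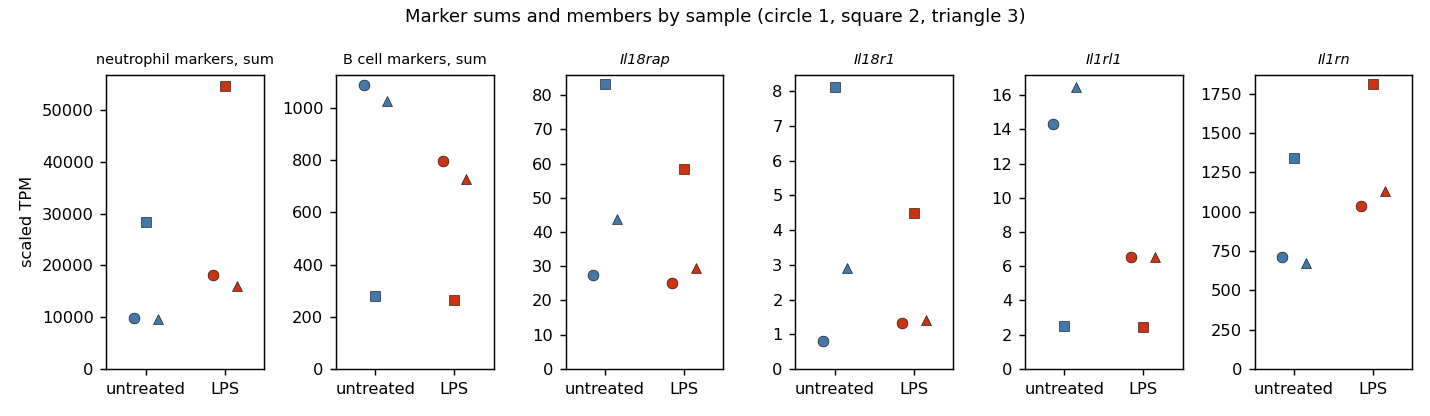
Scaled TPM in untreated (blue) and LPS (red) samples, with circles, squares and triangles for samples 1, 2 and 3, for the summed neutrophil and B cell markers and for 4 of the family genes. The square is the highest of each group for the neutrophil sum, *Il18rap*, *Il18r1* and *Il1rn* and the lowest for the B cell sum and *Il1rl1*.

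TPM is scaled to transcript length, so levels can be ordered between genes, with the limit that an average over transcripts depends on how many are annotated. GENCODE M39 lists 2 transcripts for *Il1a*, 4 for *Il1b*, 7 for *Il1rn* and 9 each for *Il1r1* and *Il1r2*. It lists 5 each for *Il1rl1* and *Il18rap*, 6 for *Il18r1* and 38 for *Sigirr*. The order given here is one of averages, and an order of gene totals could differ. In untreated samples the mean scaled TPM ran from *Il1rn* (909) through *Il1b* (351), *Il1r2* (71.0), *Il18rap* (51.3), *Il1rl1* (11.1), *Il1a* (7.39), *Il18r1* (3.95) and *Sigirr* (0.786) to *Il1r1* (0.274). Neighbours in this order overlapped between samples from *Il1r2* to *Il18rap* and from *Il1rl1* down to *Il1r1*. With LPS the order was *Il1b* (1609), *Il1rn* (1328), *Il1a* (147.5), *Il1r2* (41.3), *Il18rap* (37.7), *Il1rl1* (5.17), *Il18r1* (2.41), *Sigirr* (0.233) and *Il1r1* (0.112). The overlapping neighbours were then *Il1b* and *Il1rn*, *Il1r2* and *Il18rap*, *Il1rl1* and *Il18r1*, and *Sigirr* and *Il1r1*. In these averages *Il1a* thus moved from the sixth place, within the spread of low receptor genes, to the third, above all receptor genes in every LPS sample. With 2 annotated transcripts against 9 for *Il1r2*, its place above that gene may not hold for gene totals.

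Ratios within a sample set the genes against each other and do not depend on the scaling of the sample, apart from the pseudocount. The log2 ratio of *Il1b* to *Il1rn*, ligand against antagonist, was -2.002, -1.49 and -0.75 untreated and -0.09, 0.37 and 0.41 with LPS. All LPS ratios were above all untreated ratios, so *Il1b* rose against *Il1rn*. The level of the ratio depends on the averaging over transcripts, of which 4 are annotated for *Il1b* and 7 for *Il1rn*. It therefore does not show which gene had more RNA with LPS, while the difference between the groups does not depend on these numbers, apart from the pseudocount. The means were -1.42 ± 0.63 and 0.23 ± 0.28 (SD, n = 3), a difference of 1.65 (two-sided exact permutation p = 0.1, the smallest that 3 against 3 samples allow, adjusted p = 0.2 over 4 ratios). The log2 ratio of *Il1a* to *Il1b* was -7.28, -4.47 and -7.33 untreated and -4.18 to -2.52 with LPS, a difference of 3.01 between means (two-sided exact permutation p = 0.1, adjusted p = 0.2). These groups did not overlap either, although untreated 2 lay close to LPS 2 (-4.18), and *Il1a* remained below *Il1b* in every sample. The difference depended on the pseudocount, at 3.97 with 0.1 and 1.795 with 5, since *Il1a* was only 0.147 and 1.48 scaled TPM in untreated 1 and 3.

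The decoy stayed above the signalling receptor at the RNA level in all samples. The log2 ratio of *Il1r2* to *Il1r1* was 5.15, 6.23 and 5.90 untreated and 5.34, 5.16 and 5.25 with LPS (difference of means -0.51, two-sided exact permutation p = 0.4, adjusted p = 0.53), and the groups overlapped. With a pseudocount of 0.1 the difference was 0.083, since *Il1r1* lies below the pseudocount of 1. The ratio of *Il18rap* to *Il18r1* differed by -0.03 between the groups (3.56 ± 0.38 and 3.53 ± 0.12, SD, n = 3, two-sided exact permutation p = 0.8), so these genes kept nearly the same distance while both followed the sample number.

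**Figure D4:**
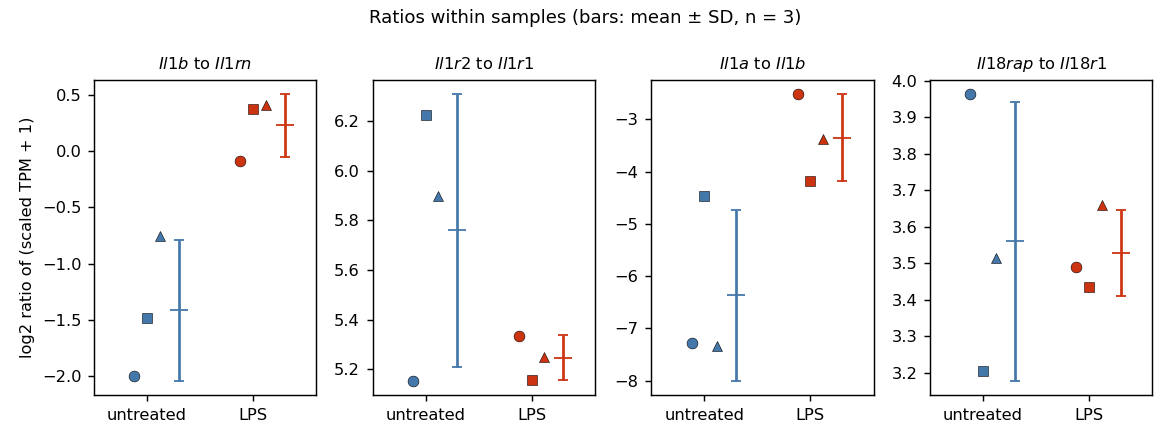
Log2 ratios of (scaled TPM + 1) for 4 pairs of genes in untreated (blue) and LPS (red) samples, with circles, squares and triangles for samples 1, 2 and 3 and bars for mean ± SD (n = 3). The groups do not overlap for *Il1b* to *Il1rn* and *Il1a* to *Il1b*, and overlap for *Il1r2* to *Il1r1* and *Il18rap* to *Il18r1*.

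Of 12 other ligands and receptors of the family listed, 8 had a row in the table and 7 were above 0. Of the 7, 1 was called, in the upward direction, beside 1.69% of all genes called higher and 2.99% in either direction. This was *Il18bp*, the gene of the secreted protein that binds and blocks IL-18. Its values were 1.51, 4.07 and 2.28 scaled TPM untreated and 27.0, 22.8 and 29.9 with LPS, all LPS samples above all untreated ones. The means differed 10.1-fold (log2 fold change 2.98, standard error 0.36, adjusted p = 0.023 in limma). Over the alternatives the adjusted p in limma ran from 0.0045, with voom, to 0.15. The call held under every alternative run, although *Numa1* overlaps the gene on the other strand. *Il18*, the gene of the ligand itself, had values of 0.282, 6.64 and 2.32 untreated and 3.09, 0.966 and 2.88 with LPS (log2 fold change -0.02, adjusted p = 0.99 in limma).

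Among the IL-36 ligands, *Il36g* was more abundant than any of the 9 genes, at 5120, 5548 and 4005 scaled TPM untreated and 3914, 6217 and 4316 with LPS. Its groups overlapped fully (log2 fold change -0.04, standard error 0.32, adjusted p = 0.96 in limma), and its direction turned under several scalings, up to 0.59 with the same total and with voom. *Il36a*, another ligand gene, had values of 1.59, 7.73 and 0.870 untreated and 6.57, 10.6 and 3.44 with LPS (log2 fold change 1.07, adjusted p = 0.50 in limma), with the highest value in sample 2 of each group. *Il36b* (log2 fold change -0.68), the antagonist gene *Il36rn* (-0.19) and the IL-36 receptor gene *Il1rl2* (-0.44) did not pass the test and were below 5 scaled TPM in all samples. *Il1rl2* was highest in untreated 3, at 4.29 against at most 0.523 elsewhere, as *Sigirr* was. *Il1f10* was listed at 0 in all samples, and *Il33*, *Il1rap*, *Il1rapl1* and *Il1rapl2* were not analysed here.

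Downstream of the receptors, 4 of the 14 tested genes of the signal relay were called higher and 0 lower, beside 1.69% and 1.31% of all genes. A log2 fold change above 0 was found for 13 of 14 (median 1.67), beside 52.9% of all genes tested (median 0.013). *Map3k7*, the gene of the kinase TAK1 that links the receptor complex to NF-κB, had values of 0.249, 1.19 and 1.07 scaled TPM untreated and 7.54, 7.55 and 7.45 with LPS (log2 fold change 2.25, adjusted p = 0.039 in limma). *Irak3*, which encodes an IRAK that restrains the pathway, had values of 20.5, 15.1 and 18.4 untreated and 65.9, 115 and 70.2 with LPS (2.12, adjusted p = 0.043 in limma). *Tollip*, another gene of a restraining adaptor, rose from 3.30 to 17.8 on average (2.21, adjusted p = 0.067 in limma), and *Nfkb1*, the gene of the NF-κB subunit p50, rose by 2.50 on the log2 scale. The exception was *Irak2*, the gene of a further IRAK of the relay, at 48.3, 224 and 56.7 untreated and 51.9, 88.1 and 52.4 with LPS (log2 fold change -0.45, adjusted p = 0.72 in limma). The count of called relay genes was 8 with the same total or voom, 1 with the same protein-coding total, 1 with a pseudocount of 5 and 2 without LPS 2.

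Among 14 tested genes for the maturation and release of IL-1, 2 were called higher and 0 lower, beside 1.69% and 1.31% of all genes. The median of their log2 fold changes was 0.15, beside 0.013 over all genes tested. *Casp4*, the gene of the caspase that senses LPS in the cytosol, had values of 5.60, 2.66 and 3.92 scaled TPM untreated and 52.0, 75.7 and 60.4 with LPS (log2 fold change 3.68, standard error 0.34, adjusted p = 0.014 in limma). The other was *Nlrp3*, which encodes the sensor of an inflammasome, with a log2 fold change of 3.76 (adjusted p = 0.020 in limma). The largest changes in the other direction did not pass the test. They were those of *Mmp9*, a neutrophil granule protease gene also used above as a neutrophil marker, at 26.6, 217 and 88.4 untreated and 12.3, 70.9 and 20.9 with LPS (log2 fold change -1.56, adjusted p = 0.46 in limma), and of *Capn2*, a calpain gene, at 12.4, 2.78 and 11.6 untreated and 1.83, 2.85 and 1.45 with LPS (-1.53, adjusted p = 0.25 in limma). *Capn2* was called lower without untreated 2 (-2.12, adjusted p = 0.053 in limma) and without both samples numbered 2 (-2.30, adjusted p = 0.097 in limma), which gave 2 genes higher and 1 lower. *Mmp9* ran from -0.85 without untreated 2 to -2.34 without untreated 1 and was called in neither fit. *Elane*, the gene of neutrophil elastase, was listed at 0 in all samples.

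**Figure D5:**
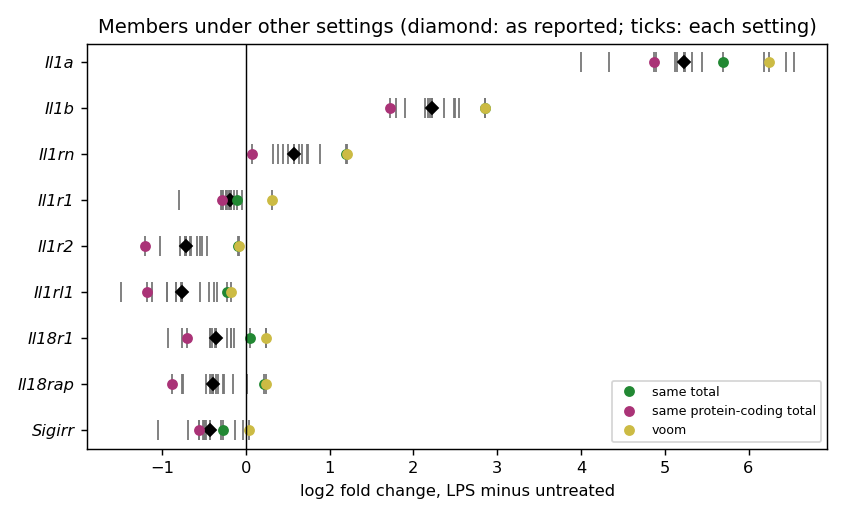
Log2 fold change, LPS minus untreated, of the 9 genes as reported (diamonds) and under each alternative (ticks), with 3 other scalings in colour. *Il1a* and *Il1b* stay to the right of 0 under every alternative, *Il1r2* and *Il1rl1* to the left, and *Il1r1*, *Il18r1*, *Il18rap* and *Sigirr* cross 0 with voom.

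Finally, the genes most like *Il1b* and *Il1r2* over the 6 samples were looked up among 2794 genes annotated as protein-coding with a mean of at least 5. Pearson's r of log2(value + 1) was used, as a description only, since the 6 points share the LPS contrast and the sample numbers. For *Il1b* they included *Adam17* (r = 0.991), a protease gene, and *Pigv*, *Gabarapl2* and *Gm19345* (each 0.988), and 58 genes were above 0.95. For *Il1r2* they were *Lyst* (0.993) and *Rab27a* (0.989), genes of granule formation and release, *Anp32a* (0.984), *Pias1* and *Unc50* (each 0.980), and 12 genes were above 0.95.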

How the data were processed

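RNA was sequenced from 6 samples, 3 untreated and 3 treated with LPS for 2 h, grouped by the treatment labels. According to the methods and the submitters' processing notes, which name fastp, STAR and kallisto and the builds GRCm39 and mm10, the authors aligned and quantified the reads and normalised the result with edgeR before the table was deposited. The deposited table is named as normalised counts, but its values were read as TPM: a mean of the TPM of each gene's transcripts, scaled by a factor that differs between samples. Among 230 values of genes with 3 annotated transcripts in untreated 3, 58.7% had no more than 6 decimals as listed and 81.7% after multiplication by 3. No counts or depths were recovered, so the main fit was not a count test. Voom, a method made for counts, was run as an alternative on the scaled TPM values. Its weights therefore do not reflect read numbers, and its p values carry that limit.

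Genes listed at 0 throughout (15690) were not tested. The remaining 23049 were fitted with limma 3.58.1 in R 4.3.3 (mean-variance trend, two-sided, no covariates) on log2(value + 1), and p values were adjusted over all of them by Benjamini-Hochberg. The limits are those of the study. Ratios were compared by exact permutation over 20 arrangements. Positions and overlaps come from GENCODE M39. Alternatives were other pseudocounts, filters, scalings, tests and samples, and leaving out both samples numbered 2 was chosen after seeing the data. The fit was tested on simulated data. All 9 genes are named, with every listed gene of the family and, for the relay and maturation lists, up to 4 called genes and 2 with the largest opposite change, and, chosen after their values were seen, *Gm14023*, *Il1bos* and *Elane*. A gene found by likeness is not reported here. The genes and lists were chosen with earlier results of these data known. Other steps used Python 3.11.15 with pandas 2.3.3, numpy 2.4.6, matplotlib 3.10.9 and scipy 1.17.1.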

Additional observations from a re-analysis of the deposited data

How the results depend on the processing

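Each result was recomputed under other settings. Of the values of single genes, 393 kept their direction and their call, 29 turned, 21 lost a call and 2 gained one. Of the ratios and counts, 113 stayed close in size and 18 moved, without regard to direction. The 113 include the *Il18rap* to *Il18r1* difference, -0.03 as reported and 0.17 without untreated 1. They also include the count of all called genes with the same protein-coding total. Its split was 216 higher and 519 lower, against 389 and 301 as reported. Of the 9 family genes, 1 was called with the same protein-coding total and without both samples numbered 2, and 0 at an adjusted p under 0.05 in limma. Leaving out each sample in turn gave 0 to 2, with 0 without untreated 3 and 0 without LPS 2. Over all genes, 1349 were called with a pseudocount of 0.1 (856 higher, 493 lower), 297 with a pseudocount of 5 (129 and 168), 1729 with voom and 424 at the adjusted limit, and 523 to 857 when each sample was left out. The signal relay had 1 called gene with a pseudocount of 5, 8 with the same total, 1 with the same protein-coding total, 8 with voom and 2 to 6 when each sample was left out, and the difference of the *Il1r2* to *Il1r1* ratio was 0.083 with a pseudocount of 0.1. The median log2 fold change of genes with a mean of at least 1 was 0.126 as reported, 0.566 with the same total, -0.224 with the same protein-coding total and 0.821 with voom. Direction turned with voom for *Il1r1* (0.31), *Il18r1* (0.24), *Il18rap* (0.24), *Sigirr* (0.04), *Il18* (0.68), *Il36g* (0.59), *Il36rn* (0.34), *Il1rl2* (0.12) and *Irak2* (0.18), and with the same total for *Il18r1* (0.05), *Il18rap* (0.22), *Il18* (0.37), *Il36g* (0.59) and *Irak2* (0.17). It also turned for *Il36g* with quantile normalization (0.43) and for *Il18* with a pseudocount of 0.1 (0.23) and without both samples numbered 2 (0.95). When each sample was left out in turn, the log2 fold change ran from -0.93 to 0.24 for *Il18r1*, -0.76 to 0.02 for *Il18rap*, -0.68 to 0.61 for *Il18*, -0.31 to 0.01 for *Il36rn* and -0.85 to 0.24 for *Irak2*, each highest without untreated 2, from -0.84 to 0.31 for *Il1rl2*, highest without untreated 3, and from -0.24 to 0.10 for *Il36g*, highest without LPS 1. The cause of these changes was not tested. The replicate numbers were not taken as pairs, as the deviations of same-numbered samples correlated at 0.094, 0.199 and 0.083, although every sample correlated best with its own number, a hint from the data and not the design. A replicate block left the counts at 690 genes and 2 of the 9, and the adjusted p in limma was 0.15 for *Il1a*, 0.080 for *Il1b* and 0.0996 for *Il18bp*. For *Il1rn* the unadjusted p in limma was 0.029 with the block and 0.21 without it. It was still not called, with an adjusted p of 0.27 in limma with the block. Depth is unknown, so no lowest detectable level can be given for the genes near 0.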
